A study of Homo sapiens with 12 samples.

Results

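The 5 genes described here encode the ectodysplasin ligand (EDA), its receptors EDAR and EDA2R, the related receptor TNFRSF19 and the adaptor EDARADD, out of 38434 named genes. They were taken by symbol from both gene count tables and were selected on their counts in maspin against ctrl cells, so their values in that contrast are given as a description without a test. RNA was measured by strand-specific mRNA sequencing in 12 libraries from 2 human lung squamous cell carcinoma (LUSC) lines, LK-2 and RERF-LC-AI, with 3 libraries in each of 4 groups. LK2-maspin and LC-AI-maspin cells carried a lentiviral vector for maspin with the green fluorescent protein ZsGreen, and LK2-ctrl and LC-AI-ctrl cells carried the same kind of vector with ZsGreen alone. All 4 groups were selected with blasticidin and established as pools of surviving clones, and no age or animal host enters the design. LK-2 cells were grown in RPMI1640 and RERF-LC-AI cells in Eagle's minimum essential medium, so that line, medium and count table cannot be told apart in any comparison between lines. The labels number the libraries of a group but do not say that they came from separate cultures, and p-values therefore cover only how these libraries vary, which may be technical variation.

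Ectodysplasin is a ligand of the tumor necrosis factor (TNF) family that is cut from the cell surface by furin and directs the formation of hair, teeth and sweat glands from surface epithelium. Its receptor EDAR recruits the death-domain adaptor EDARADD, which passes the signal through TRAF6, TAB2 and the kinase TAK1 (MAP3K7) to the IKK complex with its regulatory subunit NEMO (IKBKG) and so to the transcription factor NF-kB. In the developing skin of the mouse, EDAR is expressed downstream of Wnt and beta-catenin, and SHH, BMP4, FGF20 and PTHLH are among the genes that act downstream of it. EDA2R (XEDAR) has no death domain, binds TRAF proteins directly and is a known target of p53. TNFRSF19 (TROY) resembles EDAR in its extracellular part but does not bind ectodysplasin, and it is known as a gene of Wnt-responsive epithelial stem cells.

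EDA makes more than one ligand from a single gene, and the sequences that separate the ligands are shown because they decide which receptor is bound. EDA lies on chromosome X (GRCh38, 69616067 to 70039472, plus strand), and its principal transcript has 8 exons and 5235 bases. The longer form, EDA-A1, has 391 amino acids and binds EDAR. The shorter form, EDA-A2, has 389 amino acids and binds EDA2R. The stretch of coding sequence around the difference is given from GENCODE transcripts, 5′ to 3′, with the 6 bases that occur only in EDA-A1 in capitals.
EDA-A1: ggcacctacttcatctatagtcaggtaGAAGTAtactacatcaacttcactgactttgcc
EDA-A2: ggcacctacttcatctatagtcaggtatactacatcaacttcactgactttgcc
The deposited values are counts per gene, so they do not say how the EDA reads divide between these forms.

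The labels were checked with SERPINB5, the gene of maspin. Its level was 50.9, 50.7 and 48.4 CPM (counts scaled to a common library total with TMM factors set within each line) in the LK2-maspin libraries and 2.02, 2.01 and 1.87 CPM in the LK2-ctrl libraries. In RERF-LC-AI cells it was 513, 479 and 437 CPM in LC-AI-maspin and 0.270, 0.143 and 0.200 CPM in LC-AI-ctrl libraries. Each library thus fitted its label. LC-AI-maspin cells held far more maspin RNA than LK2-maspin cells did, with a log2 fold change of -3.45 (SE 0.08) for LK2-maspin over LC-AI-maspin cells. Totals lay between 39802246 and 54941357 counts for LK-2 libraries and between 50143577 and 65454432 counts for RERF-LC-AI libraries. Most counts come in pairs, 1 for each read of a fragment, so fewer fragments than counts were seen.

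The squamous label was checked with 8 marker genes (KRT5, KRT14, KRT6A, TP63, SOX2, DSG3, PKP1 and TRIM29). Their summed level was 423 to 484 CPM in LK2-maspin and 530 to 572 CPM in LK2-ctrl libraries, nearly all of it from SOX2, and it was 10.6 to 11.3 CPM in LC-AI-maspin and 11.2 to 11.9 CPM in LC-AI-ctrl libraries. In RERF-LC-AI cells 2 of the 8 markers had a mean above 1 CPM, against 6 in LK2-maspin and 4 in LK2-ctrl cells. TP63, the transcription factor that defines squamous epithelium, averaged 1.14 CPM in LK2-maspin, 1.27 CPM in LK2-ctrl, 0.717 CPM in LC-AI-maspin and 0.595 CPM in LC-AI-ctrl cells, and KRT14 was at 0 in all LK2-maspin libraries. The squamous markers other than SOX2 all had group means below 10 CPM in both lines.

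EDAR was the member with the largest difference between maspin and ctrl cells. The gene lies on chromosome 2 (GRCh38, 108894471 to 108989372, minus strand), and its principal transcript has 12 exons and encodes a receptor of 448 amino acids. EDAR had 786, 489 and 758 counts in LK2-maspin libraries, or 14.7, 12.4 and 16.3 CPM, against 263, 299 and 243 counts, or 5.52, 5.52 and 5.40 CPM, in LK2-ctrl libraries. Every LK2-maspin library lay above every LK2-ctrl library, and the 3 LK2-ctrl libraries were closer together (SD 0.0707 CPM) than the LK2-maspin libraries (SD 1.95 CPM). The log2 fold change was 1.40 (SE 0.12), and it was at least 1.31 when any 1 library was left out. EDAR was the 1 member of 5 past the threshold of the gene-wide comparison in LK-2 (edgeR adjusted p below 0.05), which 0.533% of the 26270 genes tested passed, 0.373% as higher and 0.160% as lower. Since this contrast chose the members, nothing is read from that count. In bulk libraries of pooled clones, more cells with EDAR and more EDAR RNA per cell cannot be told apart.

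**Figure D1:**
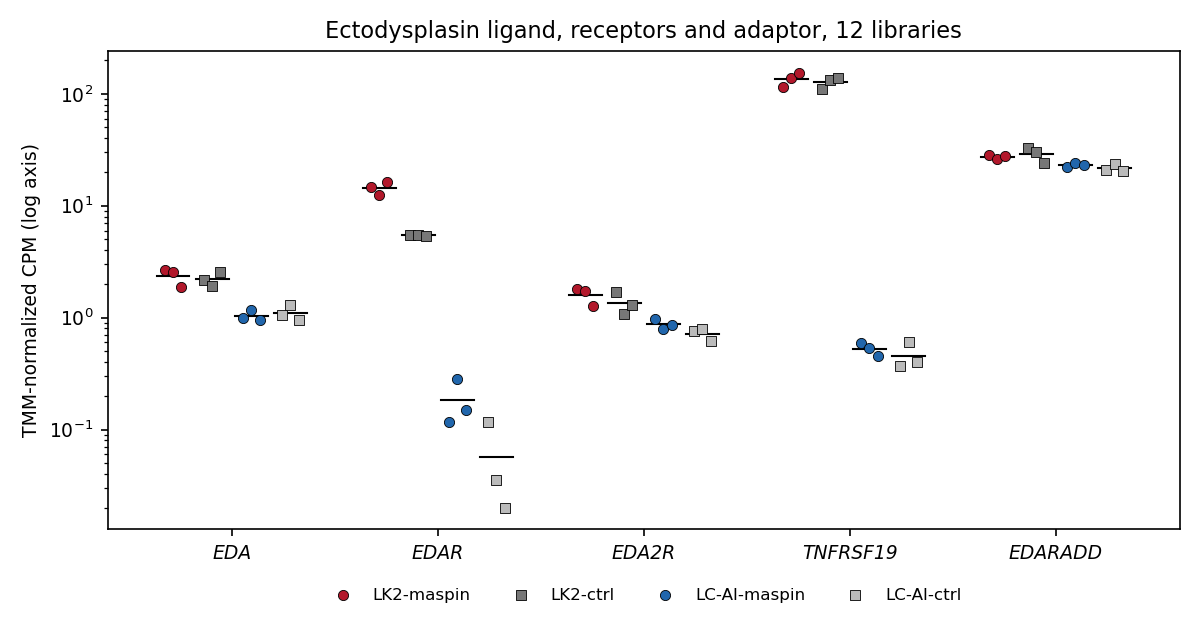
TMM-scaled CPM on a log axis for the ligand EDA, the receptors EDAR, EDA2R and TNFRSF19 and the adaptor EDARADD, with 1 point for each of the 3 libraries of LK2-maspin, LK2-ctrl, LC-AI-maspin and LC-AI-ctrl cells and a line at the group mean. EDAR separates LK2-maspin from LK2-ctrl libraries, and EDAR and TNFRSF19 separate LK-2 from RERF-LC-AI libraries.

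In RERF-LC-AI cells EDAR was close to the limit of detection. LC-AI-maspin libraries had 6, 18 and 10 counts (0.116, 0.281 and 0.150 CPM), and LC-AI-ctrl libraries had 6, 2 and 1 counts (0.116, 0.0357 and 0.0200 CPM). The group ranges touched at 6 counts. EDAR did not pass the filter on low counts for the comparison within this line. Without the filter its log2 fold change was 1.65 (SE 0.82), and in 1 fit over all 12 libraries it was 1.66 (SE 0.51). The difference of the maspin effects, LK-2 minus RERF-LC-AI, was -0.27 (SE 0.51) on the log2 scale. It was -1.20 without LC-AI-ctrl replicate 1 and 0.23 without LC-AI-maspin replicate 2, so the sign rested on single libraries with few counts. Of the 5 members, 0 were past the threshold of that comparison, where 1.76% of 28123 genes passed. The maspin contrasts chose the members, so nothing is read from that count. EDAR met the count filter of that fit through the LK-2 libraries alone.

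Other measurements stand beside the EDAR difference in LK-2 cells. The basal keratin KRT5 rose in LK2-maspin cells, with 5.62, 7.62 and 9.07 CPM, against 1.01, 0.664 and 0.666 CPM in LK2-ctrl libraries (edgeR adjusted p = 4.65e-05). It was the 1 squamous marker of 7 tested that passed (14.3%, beside 0.533% of all genes), and its part in the EDAR result was not tested. The markers did not move together, with a median log2 fold change of 0.23. SOX2 lay lower, with 468, 401 and 414 CPM in LK2-maspin and 563, 527 and 520 CPM in LK2-ctrl libraries. KRT6A lay higher, with 2.43, 3.11 and 2.42 CPM in LK2-maspin and 1.39, 1.70 and 0.977 CPM in LK2-ctrl libraries. The genes whose log2 CPM followed EDAR most closely over the 6 LK-2 libraries were OLFM2 (Pearson r = 0.996), LINC00652 (0.993) and NCOA2 (0.992). These points share 2 groups of 3 libraries, and 1.56% of the 17980 genes compared had r above 0.9.

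The other members differed little between maspin and ctrl cells. The ligand gene EDA had 2.67, 2.56 and 1.87 CPM in LK2-maspin and 2.18, 1.92 and 2.55 CPM in LK2-ctrl libraries, with a log2 fold change of 0.10 (SE 0.20). EDA had 0.983, 1.17 and 0.961 CPM in LC-AI-maspin and 1.06, 1.29 and 0.962 CPM in LC-AI-ctrl libraries, with a log2 fold change of -0.09 (SE 0.23). The ranges overlapped in both lines. Part of its principal transcript, 1327 bases, lies opposite another annotated gene on the minus strand, and the sources used here do not say whether counting used the strand.

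EDA2R, the receptor of EDA-A2, lies on the minus strand of chromosome X (GRCh38, 66595637 to 66639298) and encodes 297 amino acids. It had 1.81, 1.75 and 1.27 CPM in LK2-maspin and 1.68, 1.07 and 1.29 CPM in LK2-ctrl libraries, with a log2 fold change of 0.26 (SE 0.24). In RERF-LC-AI cells it had 0.963, 0.797 and 0.856 CPM in LC-AI-maspin and 0.754, 0.786 and 0.621 CPM in LC-AI-ctrl libraries, with a log2 fold change of 0.27 (SE 0.27). The LC-AI-maspin libraries all lay above the LC-AI-ctrl libraries, by as little as 0.797 against 0.786 CPM, and the LK-2 groups overlapped. Over the 6 RERF-LC-AI libraries, ASTN2 (r = 0.997), LOC112268125 (0.990) and IQCG (0.985) followed EDA2R most closely, where 1.12% of 16464 genes had r above 0.9.

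The adaptor EDARADD lies on chromosome 1 (GRCh38, 236348257 to 236502915, plus strand) and encodes 215 amino acids. It had 28.7, 26.1 and 27.7 CPM in LK2-maspin and 32.5, 30.4 and 24.3 CPM in LK2-ctrl libraries, with a log2 fold change of -0.08 (SE 0.10). It had 22.4, 24.3 and 23.3 CPM in LC-AI-maspin and 21.0, 23.6 and 20.5 CPM in LC-AI-ctrl libraries, with a log2 fold change of 0.10 (SE 0.07). The groups overlapped in both lines. Its count is uncertain, because its untranslated 3′ part matches, over 1548 aligned bases, the glycolytic gene ENO1 at 90.8% identity and 1304 bases of it are annotated as the processed pseudogene ENO1P1. ENO1 itself averaged 1807 CPM in LK2-maspin, 1901 CPM in LK2-ctrl, 2148 CPM in LC-AI-maspin and 2259 CPM in LC-AI-ctrl cells, and how many of its reads were counted as EDARADD was not tested.

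**Figure D2:**
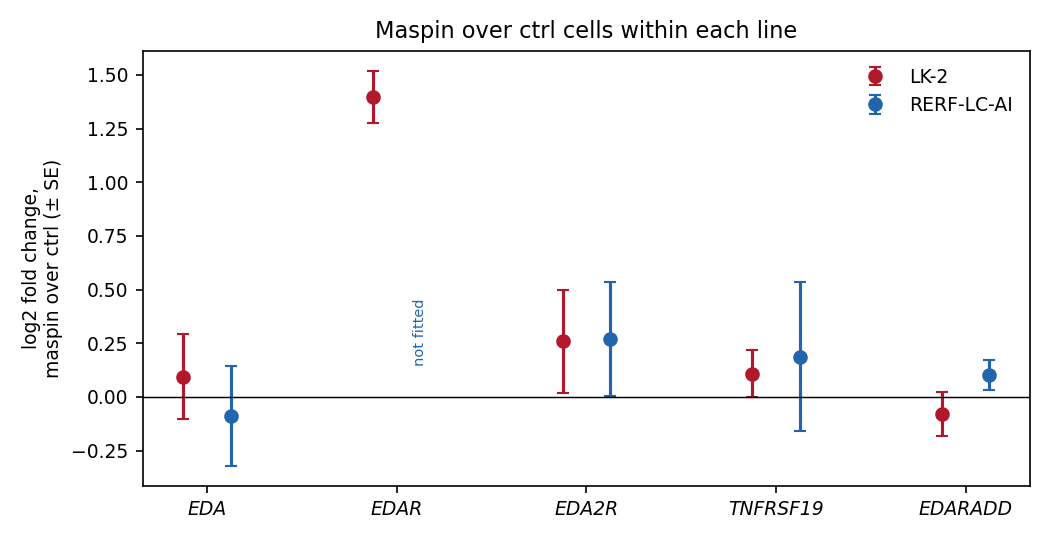
Log2 fold change, maspin over ctrl, with its standard error (edgeR, n = 3 libraries a group) for the 5 genes in each line. EDAR in LK-2 cells stands at 1.40, the other fitted values lie between -0.09 and 0.27, and EDAR was not fitted in RERF-LC-AI cells because it did not pass the count filter.

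TNFRSF19 lies on chromosome 13 (GRCh38, 23570370 to 23676104, plus strand) and encodes a receptor of 417 amino acids. It had 114, 139 and 155 CPM in LK2-maspin libraries and 110, 132 and 138 CPM in LK2-ctrl libraries, with a log2 fold change of 0.11 (SE 0.11). In RERF-LC-AI cells it had 31, 34 and 30 counts (0.597, 0.531 and 0.450 CPM) in LC-AI-maspin and 19, 34 and 20 counts (0.367, 0.607 and 0.401 CPM) in LC-AI-ctrl libraries, with a log2 fold change of 0.19 (SE 0.35). The ranges overlapped in both lines. Of the 4 members that passed the count filter in RERF-LC-AI cells, 0 were past the threshold, where 10.5% of the 25197 genes tested passed, 4.01% as higher and 6.53% as lower. As in LK-2 cells, nothing is read from that count.

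The 2 lines held these receptors at different levels, and this difference was not used to choose the genes. Fold changes between lines come from TMM factors set over the ctrl libraries of both lines, whereas CPM were scaled within each line, so a ratio of the CPM lies about 0.22 above the fitted value on the log2 scale, where a fit without scaling factors also lies. TNFRSF19 was higher in LK2-ctrl than in LC-AI-ctrl cells by 7.88 on the log2 scale (SE 0.15, edgeR adjusted p = 5.79e-15), with 126 ± 14.95 CPM in LK2-ctrl and 0.458 ± 0.130 CPM in LC-AI-ctrl cells (SD, n = 3 each). EDA was higher by 0.79 (SE 0.21, adjusted p = 0.00421), with 2.22 ± 0.319 CPM in LK2-ctrl and 1.10 ± 0.166 CPM in LC-AI-ctrl cells. Of all 26179 genes in this comparison 63.8% passed, 32.1% as higher and 31.6% as lower. EDAR had 5.48 ± 0.0707 CPM in LK2-ctrl and 0.0572 ± 0.0514 CPM in LC-AI-ctrl cells, a log2 fold change of 6.32 (SE 0.32). It met the count filter through the LK2-ctrl libraries alone, with 9 counts in LC-AI-ctrl cells in all, so its value is given without a test.

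EDA2R and EDARADD were near the threshold. EDA2R was higher in LK2-ctrl cells by 0.69 (SE 0.26, edgeR adjusted p = 0.0324), DESeq2 gave 0.65 (adjusted p = 0.0704), and over the alternatives its adjusted p ran from 0.00794 to 0.156. Leaving out LK2-ctrl replicate 1 gave 0.50 with an adjusted p of 0.156, and leaving out LC-AI-ctrl replicate 1 (0.71), 2 (0.75) or 3 (0.59) also ended the call. EDARADD differed by 0.22 (SE 0.11, adjusted p = 0.0993), and its adjusted p ran from 0.00127, without LK2-ctrl replicate 3, to 0.652 in maspin libraries. Upper-quartile scaling, which moves the median of all genes by 0.21, gave 0.43 for EDARADD with an adjusted p of 0.00219.

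The maspin libraries of both lines, compared in the same way, gave a second view of the line difference in separate libraries. TNFRSF19 was higher in LK2-maspin than in LC-AI-maspin cells by 7.83 (SE 0.14, edgeR adjusted p = 7.76e-22), EDA by 0.99 (SE 0.21, adjusted p = 0.000361) and EDA2R by 0.69 (SE 0.24, adjusted p = 0.0145). EDARADD differed by 0.04 (SE 0.08, adjusted p = 0.652), and EDAR, with few counts in LC-AI-maspin cells, had a log2 fold change of 6.07 (SE 0.21). In that comparison 63.3% of 26535 genes passed, 31.4% as higher and 32.0% as lower.

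The promoters of TNFRSF19 are shown because this gene had the largest difference between the lines among the 5 genes. RefSeq gives 2 start sites, and the windows of 300 bases around them (GRCh38.p14, plus strand) are printed 5′ to 3′ with each CpG in capitals.
TNFRSF19 upstream start, chr13:23570162-23570461: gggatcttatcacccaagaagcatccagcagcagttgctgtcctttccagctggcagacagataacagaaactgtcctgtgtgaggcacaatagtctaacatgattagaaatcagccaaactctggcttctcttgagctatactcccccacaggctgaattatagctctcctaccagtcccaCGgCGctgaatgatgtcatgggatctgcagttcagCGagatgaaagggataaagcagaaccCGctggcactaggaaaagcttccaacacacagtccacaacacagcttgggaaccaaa
TNFRSF19 downstream start, chr13:23579110-23579409: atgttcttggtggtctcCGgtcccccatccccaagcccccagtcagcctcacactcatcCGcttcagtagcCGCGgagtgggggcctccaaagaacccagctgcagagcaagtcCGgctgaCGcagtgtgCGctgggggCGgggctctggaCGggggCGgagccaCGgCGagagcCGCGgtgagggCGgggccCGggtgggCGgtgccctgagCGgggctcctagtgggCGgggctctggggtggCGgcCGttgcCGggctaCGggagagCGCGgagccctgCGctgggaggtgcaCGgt
The upstream window holds 4 CpG and the downstream window 27, against a median of 14 over 35116 RefSeq promoter windows of this length. The motif CTTTGAT, of the kind LEF and TCF factors bind, read on both strands, is in neither window and in 2.62% of all windows. Gene counts do not show which start was used, and methylation was not measured here.

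To compare levels between genes, CPM was divided by the length of the principal transcript in kilobases (kb). In LK2-maspin cells the order was TNFRSF19 with 30.7 ± 4.60, EDARADD with 8.91 ± 0.416, EDAR with 3.55 ± 0.480, EDA2R with 0.465 ± 0.0862 and EDA with 0.452 ± 0.0830 CPM per kb (SD, n = 3). In LK2-ctrl cells it was TNFRSF19 with 28.5 ± 3.37, EDARADD with 9.42 ± 1.38, EDAR with 1.35 ± 0.0174, EDA with 0.424 ± 0.0609 and EDA2R with 0.3896 ± 0.0893 CPM per kb. The library ranges of EDA and EDA2R overlapped in both groups, and the other neighbours in the order did not overlap.

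RERF-LC-AI cells had another order. In LC-AI-maspin cells EDARADD had 7.55 ± 0.311, EDA2R 0.252 ± 0.0244, EDA 0.198 ± 0.0222, TNFRSF19 0.119 ± 0.0166 and EDAR 0.0449 ± 0.0215 CPM per kb. In LC-AI-ctrl cells EDARADD had 7.03 ± 0.537, EDA 0.211 ± 0.0317, EDA2R 0.208 ± 0.0253, TNFRSF19 0.103 ± 0.0293 and EDAR 0.0141 ± 0.0127 CPM per kb. EDA and EDA2R overlapped in LC-AI-ctrl libraries. The adaptor was thus the most abundant member in RERF-LC-AI cells, with the reservation about ENO1 above, while the receptor it serves was the least abundant.

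The 23 genes taken as targets of ectodysplasin signalling were read from the same fits. In LK-2 cells 18 were tested, and 1 rose and 1 fell by edgeR (11.1%, beside 0.533% of all genes). The counts were 1 and 2 when equally numbered libraries were treated as pairs, the replicate block. The median log2 fold change of the list was 0.02 against -0.000998 over all genes. SHH, the hedgehog ligand of placodes, fell, with 175, 132 and 132 CPM in LK2-maspin and 312, 250 and 262 CPM in LK2-ctrl libraries (log2 fold change -0.91, SE 0.11, edgeR adjusted p = 0.00346). BMP4, a growth factor that restrains neighbouring placodes, rose, with 68.0, 77.8 and 71.0 CPM in LK2-maspin and 47.4, 51.1 and 52.9 CPM in LK2-ctrl libraries (0.52, SE 0.07, adjusted p = 0.00687). The groups did not overlap for either gene, and the targets that passed moved in opposite directions. Whether EDAR had a part in either change was not tested. The BMP4 call was lost without LK2-ctrl replicate 2 (adjusted p = 0.0705) or LK2-maspin replicate 2 (adjusted p = 0.0854), and its adjusted p ran from 5.05e-14 to 0.0854 over the alternatives.

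In RERF-LC-AI cells 17 of the target genes were tested, and 2 rose and 0 fell by edgeR (11.8%, beside 10.5% of all genes). Their median log2 fold change was -0.08. At an unadjusted p below 0.05 the counts were 5 and 2, DESeq2 called 0 higher and 1 lower, 1 fit over all 12 libraries 1 and 0, and the replicate block 3 and 2. The epidermal growth factor family ligand EPGN had 1.54, 1.14 and 1.70 CPM in LC-AI-maspin and 0.811, 0.840 and 0.762 CPM in LC-AI-ctrl libraries (log2 fold change 0.86, SE 0.23, edgeR adjusted p = 0.0142). FST, the activin antagonist follistatin, had 25.5, 29.0 and 18.2 CPM in LC-AI-maspin and 19.9, 21.0 and 13.9 CPM in LC-AI-ctrl libraries (0.40, SE 0.12, adjusted p = 0.0290). The FST groups overlapped, although FST was higher in LC-AI-maspin within each pair of equally numbered libraries. Its call was lost without LC-AI-ctrl replicate 3 (adjusted p = 0.266), LC-AI-maspin replicate 1 (0.108) or LC-AI-maspin replicate 2 (0.323), and that of EPGN without LC-AI-ctrl replicate 3 (0.0573) or LC-AI-maspin replicate 3 (0.122). Over the alternatives the adjusted p ran from 1.98e-06 to 0.323 for FST and from 0.00538 to 0.122 for EPGN.

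Between lines, 10 of 19 target genes tested were higher and 6 lower in LK2-ctrl than in LC-AI-ctrl cells, or 84.2%, beside 63.8% of all genes. With at least 10 counts required in every library, 8 were higher and 6 lower of 14. SHH was higher by 8.87 on the log2 scale (SE 0.15, 275 CPM in LK2-ctrl and 0.510 CPM in LC-AI-ctrl cells) and BMP4 by 2.43 (SE 0.08, 50.5 CPM in LK2-ctrl and 8.12 CPM in LC-AI-ctrl cells). The placode ligands and antagonists PTHLH (8.05, SE 0.18), FGF20 (7.36, SE 0.19) and SOSTDC1 (6.62, SE 0.22) were higher as well. The matricellular gene CCN2 (-6.71, SE 0.12) and FST (-4.42, SE 0.18) were lower. The adjusted p was at most 2.14e-11 for SHH, BMP4, PTHLH, CCN2 and FST. FGF20 and SOSTDC1 met the count filter through LK2-ctrl libraries alone, and their values are a description.

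**Figure D3:**
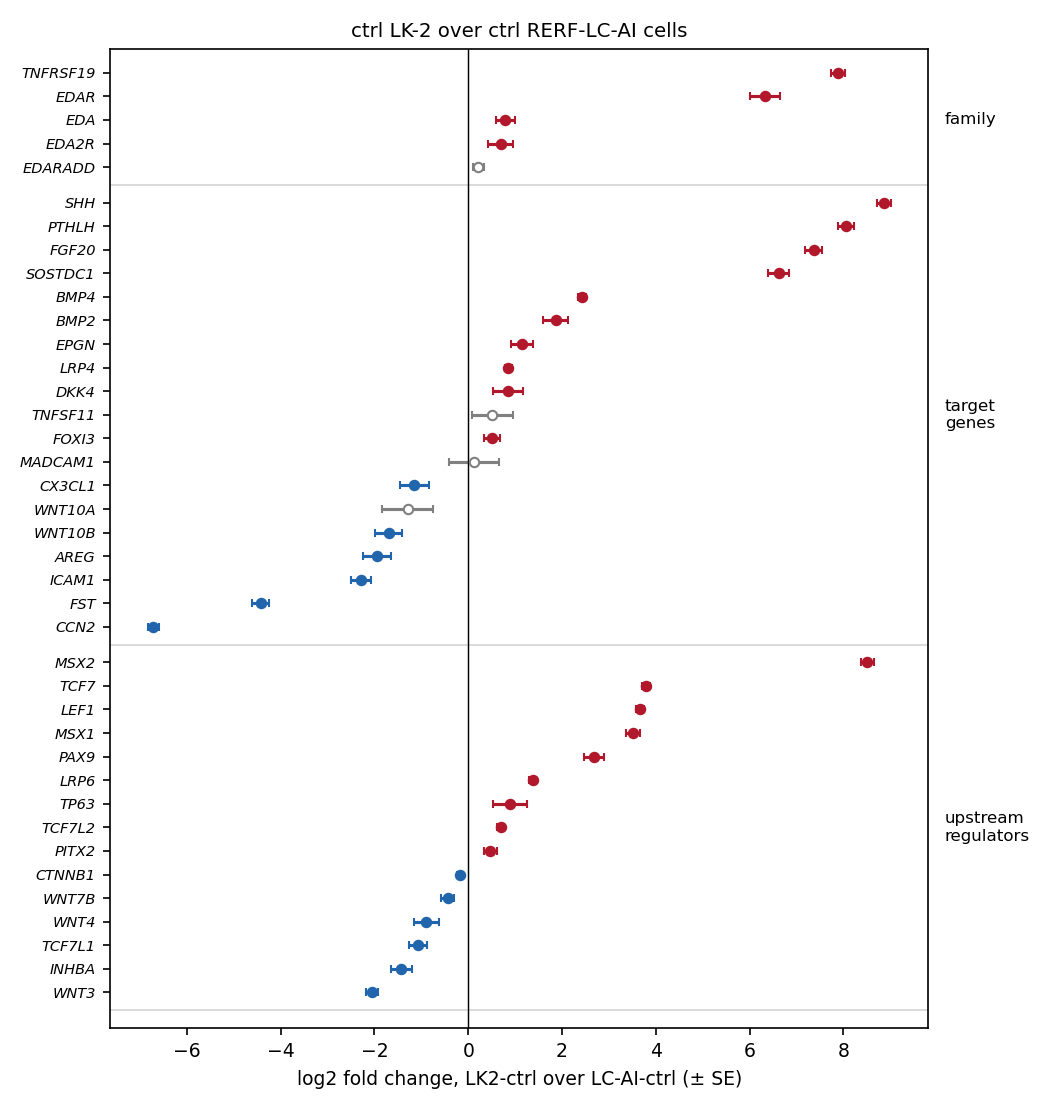
Log2 fold change, LK2-ctrl over LC-AI-ctrl, with its standard error (n = 3 libraries a group) for the 5 family genes, 19 target genes and 15 upstream regulators tested. Filled red points passed as higher in LK2-ctrl cells, filled blue points as lower, and open grey points did not pass; TNFRSF19, EDAR, SHH, PTHLH, FGF20, SOSTDC1 and MSX2 lie above 6, of which EDAR, FGF20 and SOSTDC1 met the count filter through LK2-ctrl libraries alone.

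Upstream regulators were 16 genes of the Wnt and placode programs. In LK-2 cells 0 of 16 passed between maspin and ctrl cells by edgeR or DESeq2, and 3 were higher and 1 lower at an unadjusted p below 0.05. By edgeR 0.533% of all genes passed, so nothing is read from 0 calls in a list of this length. With the replicate block, 4 rose and 1 fell. LEF1, the nuclear partner of beta-catenin, rose by 0.27 in that fit (adjusted p = 4.87e-08), with 221, 252 and 246 CPM in LK2-maspin and 193, 206 and 197 CPM in LK2-ctrl libraries. In RERF-LC-AI cells 1 rose and 1 fell of 16 (12.5%, beside 10.5% of all genes), against 2 and 1 with the block and 0 in 1 fit over all 12 libraries. LEF1 had 16.4, 16.5 and 15.5 CPM in LC-AI-maspin and 14.0, 12.5 and 14.4 CPM in LC-AI-ctrl libraries (0.24, SE 0.08, adjusted p = 0.0486), a call lost whichever library was left out (adjusted p up to 0.221). TCF7L1, a repressor of the same family, fell by 0.42 (SE 0.12, adjusted p = 0.0157), and its call was lost without LC-AI-ctrl replicate 3 (0.0876) or LC-AI-maspin replicate 3 (0.138).

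Between lines, 9 of the 15 upstream regulators tested were higher and 6 lower in LK2-ctrl cells (100%, beside 63.8% of all genes). In the maspin libraries the excess was small, with 8 higher and 3 lower of 16 tested in LK2-maspin cells (68.8%, beside 63.3% of all genes). The homeobox genes MSX2 (8.51, SE 0.14), MSX1 (3.51, SE 0.15) and PAX9 (2.68, SE 0.22), and the beta-catenin partners TCF7 (3.79, SE 0.09) and LEF1 (3.66, SE 0.08), were higher, each with an adjusted p of at most 4.53e-08. CTNNB1, the gene of beta-catenin itself, had a difference whose sign depended on the scaling, -0.19 (SE 0.06, adjusted p = 0.0200) with TMM and 0.03 (adjusted p = 0.651) with upper-quartile scaling.

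The signalling genes between the receptor and NF-kB were 26, and in LK-2 cells 0 of them passed between maspin and ctrl cells by edgeR or DESeq2 (1 higher at an unadjusted p below 0.05, and 1 higher with the replicate block). Beside 0.533% of all genes by edgeR, 0 calls in so short a list are not read as a result. TRAF6 had a log2 fold change of -0.01 (SE 0.08), MAP3K7 of -0.02 (SE 0.07), TAB2 of 0.04 (SE 0.06), IKBKG of 0.09 (SE 0.08) and FURIN, the protease that releases ectodysplasin, of 0.09 (SE 0.10). The median of the list was 0.03. In RERF-LC-AI cells 4 rose and 4 fell, or 30.8% of 26, where 10.5% of all genes passed, 4.01% as higher and 6.53% as lower. In 1 fit over all 12 libraries 1 rose and 1 fell. The NF-kB subunit genes NFKB2 (0.40, SE 0.05, edgeR adjusted p = 1.44e-06) and RELB (0.39, SE 0.08, adjusted p = 0.000827) and the ubiquitin ligase gene BIRC3 (0.40, SE 0.08, adjusted p = 0.000526) rose, and its relative BIRC2 fell (-0.40, SE 0.06, adjusted p = 2.69e-05). FURIN fell by 0.18 (SE 0.05, adjusted p = 0.0104), a call lost without LC-AI-maspin replicate 1 (0.0546) or replicate 3 (0.0526). In 1 fit over all 12 libraries RELB (adjusted p = 0.0741), BIRC3 (0.0808) and FURIN (0.255) did not pass. TRAF6, MAP3K7, TAB2 and IKBKG did not pass in RERF-LC-AI cells, with log2 fold changes between -0.07 and 0.17.

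Between lines most of the signalling genes were lower in LK-2 cells. Of 26 tested, 1 was higher and 21 were lower in LK2-ctrl than in LC-AI-ctrl cells (84.6%, beside 63.8% of all genes). The median was -1.06 against 0.10 over all genes. REL was higher (1.84, SE 0.06). The kinase gene MAP3K14 (-4.31, SE 0.15), RELB (-3.39, SE 0.16), the deubiquitinase gene CYLD (-2.77, SE 0.09), IKBKG (-2.03, SE 0.07), FURIN (-1.44, SE 0.09) and MAP3K7 (-0.62, SE 0.07) were lower, each with an adjusted p of at most 3.70e-06. TRAF6, the ubiquitin ligase that EDARADD recruits, differed by 0.06 (SE 0.09) with TMM scaling and by 0.27 with upper-quartile scaling, where it passed (adjusted p = 0.0165).

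**Figure D4:**
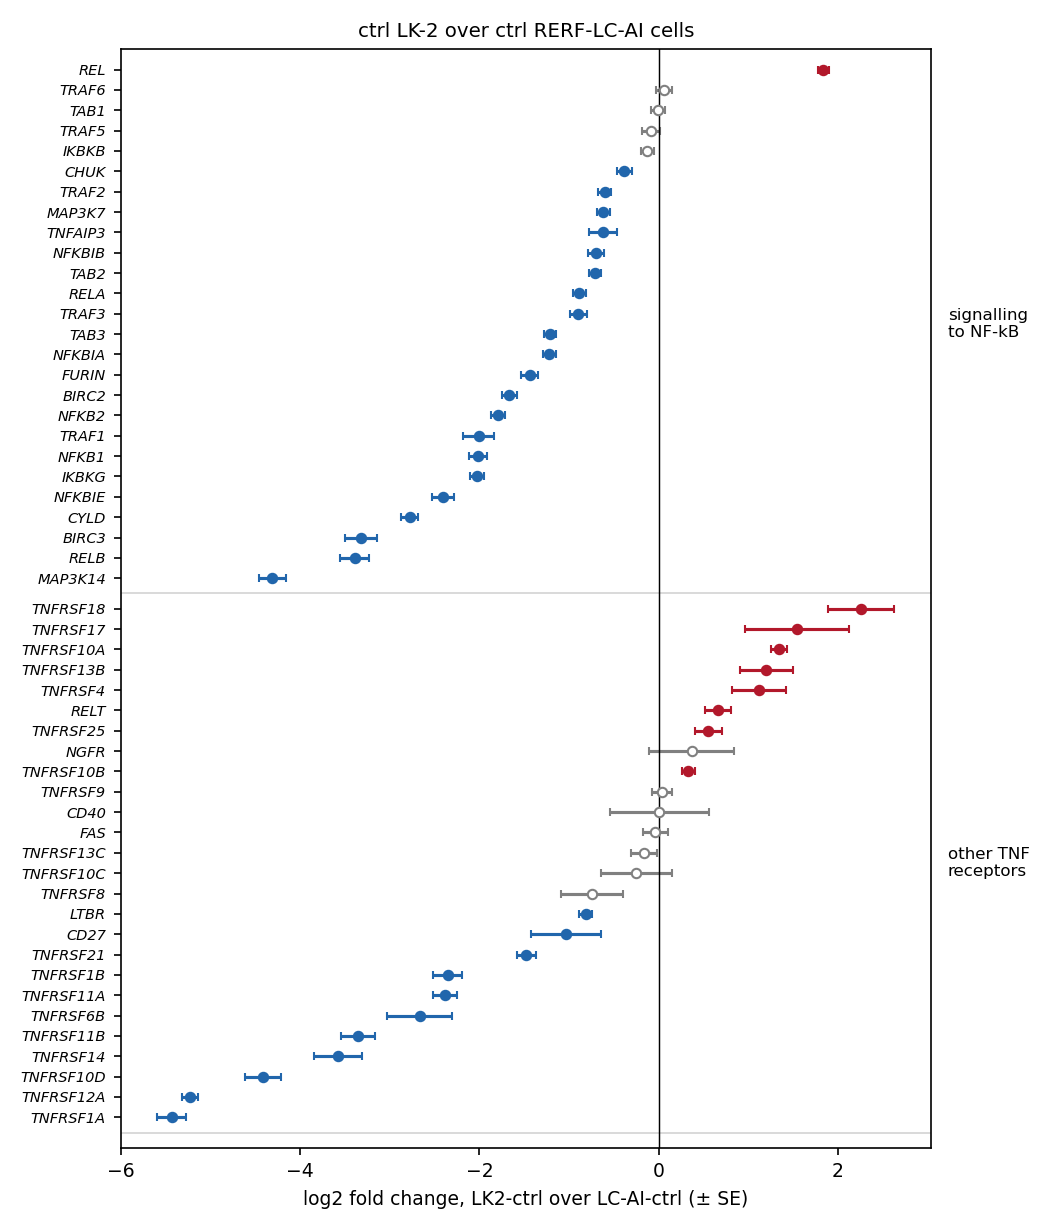
Log2 fold change, LK2-ctrl over LC-AI-ctrl, with its standard error (n = 3 libraries a group) for 26 genes of signalling to NF-kB and 26 other TNF receptor genes. Red points passed as higher in LK2-ctrl cells, blue points as lower, and open grey points did not pass; 21 of the signalling genes are blue, and the receptors are 8 red and 11 blue.

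The remaining TNF receptor superfamily served as the nearest comparison for EDAR, EDA2R and TNFRSF19. In LK-2 cells 0 of 26 rose and 1 fell by the edgeR quasi-likelihood test (3.85%, beside 0.533% of all genes). DESeq2 also called 0 higher, and 1 was higher at an unadjusted p below 0.05. The likelihood ratio test and 1 fit over all 12 libraries each called 1 higher. The gene that fell was the lymphotoxin receptor LTBR (35.7 CPM in LK2-maspin and 46.0 CPM in LK2-ctrl cells, log2 fold change -0.37, SE 0.06, edgeR adjusted p = 0.0250). Its call was lost without 5 of the 6 libraries (adjusted p up to 0.223). With the replicate block 2 rose, TNFRSF11B among them (0.59, adjusted p = 1.28e-05). In RERF-LC-AI cells 2 rose and 2 fell of 25 (16%, beside 10.5% of all genes), and with the block LTBR fell as well (-0.12, adjusted p = 0.0312). TNFRSF11B, the decoy receptor osteoprotegerin, fell to 28.3, 29.8 and 26.3 CPM in LC-AI-maspin libraries, against 75.2, 69.8 and 73.6 CPM in LC-AI-ctrl libraries (-1.37, SE 0.06, adjusted p = 1.45e-16). TNFRSF21 fell by 0.20 (SE 0.06, adjusted p = 0.0246), lost without LC-AI-ctrl replicates 2 or 3 or LC-AI-maspin replicates 1 or 3. TNFRSF9 (0.39, SE 0.09, adjusted p = 0.00525) and the death receptor gene TNFRSF10B (0.26, SE 0.06, adjusted p = 0.00226) rose.

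Between lines, the other receptors were 8 higher and 11 lower in LK2-ctrl cells (73.1%, beside 63.8% of all genes), with a median of -0.21. The 26 tested include genes that met the count filter through 1 line alone, so the split is a description. TNFRSF17, for instance, had 15, 12 and 11 counts in LK2-ctrl and 3, 7 and 2 counts in LC-AI-ctrl libraries. The largest differences were lower in LK2-ctrl cells, TNFRSF1A, the main receptor of TNF (-5.43, SE 0.16, 4.25 CPM in LK2-ctrl and 158 CPM in LC-AI-ctrl cells), and TNFRSF12A, the receptor of TWEAK (-5.22, SE 0.09, 4.82 CPM in LK2-ctrl and 156 CPM in LC-AI-ctrl cells). The largest difference upward among the 26 was 2.26 (TNFRSF18), below the 7.88 of TNFRSF19. TNFRSF18 had 6, 10 and 12 counts in LC-AI-ctrl libraries. It met the count filter through LK2-ctrl libraries alone, so its value is a description, and it was named after its value was seen. Over the alternatives 6 to 8 of the other receptors were higher and 10 to 12 lower.

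Of the other TNF ligands, 0 of 14 passed in LK-2 cells by edgeR or DESeq2 (1 higher at an unadjusted p below 0.05). With 0.533% of all genes past the threshold by edgeR, nothing is read from that 0. In RERF-LC-AI cells 2 rose and 1 fell of 15 (20%, beside 10.5% of all genes). TNFSF9 rose (0.33, SE 0.08, edgeR adjusted p = 0.00337), as did CD70 (0.30, SE 0.10, adjusted p = 0.0462), and TNFSF12, the gene of TWEAK, fell (-0.33, SE 0.09, adjusted p = 0.0159). The CD70 and TNFSF12 calls were lost without most single libraries, with adjusted p up to 0.297 for CD70 and 0.0863 for TNFSF12, and 0 of 15 passed in 1 fit over all 12 libraries (TNFSF9, 0.109). Between lines 2 of 14 were higher and 5 lower in LK2-ctrl cells (50%, beside 63.8% of all genes).

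Genes regulated by p53 were read because EDA2R is 1 of that group. In LK-2 cells 0 of 24 passed by edgeR or DESeq2 (2 higher at an unadjusted p below 0.05, and 2 higher with the replicate block), with a median of 0.03. The share over all genes was 0.533% by edgeR, so the 0 is not read as a result. In RERF-LC-AI cells 5 rose and 2 fell of 25 (28%, beside 10.5% of all genes), with a median of -0.04. The counts were 5 and 3 with the block and 3 and 1 in 1 fit over all 12 libraries. SESN2 (0.59, SE 0.07, edgeR adjusted p = 3.31e-07), a stress-response regulator, GDF15 (1.03, SE 0.15, adjusted p = 2.45e-05), a secreted stress factor, and BBC3 (0.52, SE 0.11, adjusted p = 0.00169), the gene of PUMA, rose, and the cyclin gene CCNG1 fell (-0.24, SE 0.05, adjusted p = 0.00190). BBC3 did not pass in 1 fit over all 12 libraries (0.100). EDA2R stood at 0.27 (SE 0.27) in the same contrast. Between lines 6 of 25 were higher and 15 lower in LK2-ctrl cells (84%, beside 63.8% of all genes), and EDA2R was higher by 0.69.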

How the data were processed

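RNA of 4 groups of 3 libraries was sequenced on an Illumina NovaSeq system. Per the labels, the authors trimmed reads with Trimmomatic 0.39 and used BWA 0.7.17, SAMtools 1.12 (LK-2) or 1.10 (RERF-LC-AI) and GRCh38.p13. They deposited counts of mapped reads per gene in 2 tables, 1 per line, beside scaled columns that were not used here. No source used here names the counting tool. Lines without a symbol (646, 0.292 to 0.416% of counts) were left out.

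Counts of both tables were joined by gene and tested with edgeR 4.0.16 in R 4.3.3 (quasi-likelihood F test, TMM factors set over the libraries of each comparison, filterByExpr with a minimum count of 10 and a total of 15, Benjamini-Hochberg over all genes tested, threshold 0.05). The standard error is the log2 fold change divided by the root of F. Comparisons were maspin over ctrl within each line, LK2-ctrl over LC-AI-ctrl, and the difference of the maspin effects over all 12 libraries. The test was also run on simulated counts with a common spread per comparison and changes only in genes of higher counts. That run does not cover genes of few counts or paired libraries. The members and gene lists were chosen with earlier results of these data known. Named were all members, SERPINB5, TRAF6, MAP3K7, TAB2, IKBKG and FURIN, from each list and line up to 4 genes past the threshold with the smallest adjusted p, and per line the 3 genes of at least 1 CPM most correlated with the member of largest change. In the comparison of the lines, list genes were named as the largest differences after their values were seen. Other settings were the likelihood ratio test, DESeq2 1.42.0, RLE, upper-quartile or no scaling factors, other filters, a replicate block and leaving out each library. The fit over all 12 libraries and the comparison of maspin libraries between lines were added after seeing the data. Gene positions are from GENCODE 44, and promoters from RefSeq, which matched 3 of the 5 members. Similar sequence was searched with BLAST 2.17.0.

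Replicate numbers come from the sample titles. Deviations of equally numbered maspin and ctrl libraries correlated with an r of at least 0.113 for LK-2 and at least 0.203 for RERF-LC-AI libraries over genes with a mean log2 CPM above 3, and with an r of 0.00167 to 0.164 over all genes tested. Libraries of unequal number had an r of at most 0.18 for LK-2, above that lowest value, and at most -0.0283 for RERF-LC-AI over the genes above 3. The numbers were taken as pairs in the replicate block only. The main fits and their standard errors and adjusted p do not use the pairs. Counts with the block are given beside the lists whose number of calls it changed between maspin and ctrl cells.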

Additional observations from a re-analysis of the deposited data

Results flagged for a closer look

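The effect of maspin differed between the lines, by the interaction term over all 12 libraries (edgeR, adjusted over 28123 genes, of which 1.76% passed), for 7 genes of the lists. The 5 ectodysplasin members are not part of this count, because the maspin contrasts chose them. The count is without the block, with which it was 2 higher and 1 lower for target genes, 3 and 3 for other receptors, 1 and 0 for ligands, 3 and 1 for signalling genes, 2 and 0 for upstream regulators and 3 and 2 for p53 targets. TNFRSF11B, the gene of osteoprotegerin, had a log2 fold change of 0.56 for LK-2 cells and -1.37 for RERF-LC-AI cells, a difference of 1.94 (adjusted p = 0.000381). BMP4 had 0.52 for LK-2 cells and -0.28 for RERF-LC-AI cells, a difference of 0.80 (adjusted p = 0.000426). SHH had -0.91 for LK-2 cells and 0.70 for RERF-LC-AI cells, a difference of -1.59 (adjusted p = 0.0200), with all LC-AI libraries near or below 1 CPM. The decoy receptor gene TNFRSF10D had 1.198 for LK-2 cells and -0.22 for RERF-LC-AI cells, a difference of 1.42 (adjusted p = 0.00452). TNFSF12 had 0.84 for LK-2 cells and -0.33 for RERF-LC-AI cells, a difference of 1.18 (adjusted p = 0.0304). All LK-2 libraries were below 1 CPM for TNFSF12, and it was not called within that line. NFKB2 had -0.09 for LK-2 cells and 0.40 for RERF-LC-AI cells, a difference of -0.49 (adjusted p = 0.00633). BIRC2 had 0.08 for LK-2 cells and -0.40 for RERF-LC-AI cells, a difference of 0.48 (adjusted p = 0.0195). None of the 7 genes was called within both lines by the main test, so opposite signs are not calls in opposite directions. TNFRSF11B, TNFRSF10D, NFKB2 and BIRC2 were not called in LK-2 cells. BMP4, SHH and TNFRSF10D were not called in RERF-LC-AI cells. The calls of SHH, TNFSF12 and BIRC2 were lost without single libraries, with adjusted p up to 0.108 (without LC-AI-maspin replicate 3), 0.0954 (without LK2-maspin replicate 3) and 0.0679 (without LC-AI-maspin replicate 1).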

How the results depend on the processing

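The count of genes past the threshold in LK-2 cells, 140, was 314 with the likelihood ratio test, 280 with DESeq2, 251 in 1 fit over all 12 libraries and 1190 with the replicate block, and 50 to 199 when 1 library was left out (50 without LK2-ctrl replicate 2, 52 without LK2-maspin replicate 2, 82 without LK2-maspin replicate 3). In RERF-LC-AI cells it was 2655, against 1163 over all 12 libraries, 4081 with the replicate block and 1764 (without LC-AI-maspin replicate 3) to 2594 without 1 library. The difference of the maspin effects gave 494 genes, against 884 with the likelihood ratio test, 981 with DESeq2, 2273 with the replicate block and 275 (without LC-AI-maspin replicate 3) to 754 (without LK2-ctrl replicate 3) without 1 library, with 316 without LK2-ctrl replicate 2, 306 without LK2-maspin replicate 2 and 282 without LC-AI-ctrl replicate 3. The comparison of the ctrl lines stayed within 1.5 times of 16690 in all 15 alternatives, but its split of 8407 higher and 8283 lower became 10768 and 6851 with upper-quartile scaling and 10778 and 6820 without scaling factors. In RERF-LC-AI cells the split of 1010 higher and 1645 lower became 1305 and 1388, and 1408 and 1287, and for the difference of effects 381 and 113 became 408 and 202 without scaling factors. Between the lines TNFRSF9 stood at 0.04 in ctrl libraries, where it was not called. In maspin libraries, which are other cells rather than another setting, it stood at -0.47 (edgeR adjusted p = 0.000409). For RERF-LC-AI cells the call of BMP4 (-0.29, adjusted p = 0.0352) was gained with the block. EDA, EDA2R, EDARADD and TNFRSF19 ran from -0.19 to 0.45 on the log2 scale between maspin and ctrl cells of a line over the alternatives run. The TNFRSF19 difference between the lines held in all 16 alternatives, between 7.73 and 8.14, and the EDAR value, which has no test, ran from 5.95 to 7.27. Between lines the alternatives include a replicate block that pairs libraries by number, although equal numbers were compared only within a line. EDAR in RERF-LC-AI cells had 1 to 18 counts a library, so its value there rests on few reads. Over the single genes named, 1976 values kept their side of the threshold or, where untested, moved by less than the spread between libraries (values near 0 that were not called could change sign, as EDA did), 79 lost a call and 20 gained one. The causes were not tested.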
